A study of Epimedium pubescens with 27 samples.

Results

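The UDP-glycosyltransferase (UGT) genes described here are 7 genes that the study of nitrate supply in Epimedium pubescens singled out for icariin-type flavonoid metabolism, of 58645 genes in the deposited tables. They are EpUGT16_A (Ebr06G040830), EpUGT6_A (Ebr06G043650), EpUGT13_A (Ebr06G044210), EpUGT2_A (Ebr01G013210), and the genes Ebr06G044290, Ebr06G044660 and Ebr06G045440, which carry only the name UGT. They were taken by gene identifier. The study's grounds were differential expression at its last stage and correlation with other pathway genes and with flavonoid contents. A further ground was correlation with the transcription factor genes MYB1 and MYB12. Because the last stage served for the choice, its values are given below as a description without a test, and tests are restricted to the first 2 stages. The study describes its networks of pathway genes for the last stage, and does not name the libraries behind the correlation with MYB1 and MYB12. Whether libraries of the first 2 stages entered that correlation is therefore not known.

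Leaves were collected from 1-year-old seedlings grown in pots of river sand and perlite after 20 days of pre-culture. Plants received no nitrate (LN, 0 mM), medium nitrate (MN, 7.5 mM) or high nitrate (HN, 22.5 mM), and were sampled at S1, S2 and S3, which are 24, 36 and 48 days after treatment (DAT). Chloride and sulfate salts replaced the nitrate salts in LN, and HN received sodium nitrate in addition, so that the accompanying ions changed together with nitrate and cannot be told apart from it. At 48 DAT, LN plants had chlorotic and HN plants necrotic older leaves. Each of the 9 groups had 3 libraries, replicates A, B and C, named in the study as biological replicates; whether a library pooled several plants is not stated in the sources read here.

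UGTs move a sugar from a UDP-sugar onto an acceptor such as a flavonol. Icariin and the epimedins of Epimedium leaves are prenylated flavonol glycosides with rhamnose-containing sugar chains at the C3 position and glucose at C7. Their synthesis runs from phenylalanine over chalcone synthase, flavanone 3-hydroxylase and flavonol synthase to the flavonol, which prenyltransferases, O-methyltransferases and UGTs then decorate. UGTs that extend an existing sugar chain, for instance by adding xylose, glucose or rhamnose to a flavonoid 3-O-glycoside, form a group of their own within the family in other plants.

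All 7 genes carry the UGT domain PF00201 in the deposited annotation. EpUGT6_A, EpUGT13_A, Ebr06G044660 and Ebr06G045440 share 1 best Swiss-Prot match, a cyanidin 3-O-galactoside 2''-O-xylosyltransferase of kiwifruit (FGGT1, Actinidia chinensis). Ebr06G044290 matched an anthocyanidin 3-O-glucoside 2''-O-glucosyltransferase of morning glory (Ipomoea purpurea), and EpUGT16_A an anthocyanidin-3-O-glucoside rhamnosyltransferase of petunia (Petunia hybrida). EpUGT2_A matched UDP-glucosyltransferase 29 of ginseng (Panax ginseng). These matches describe similarity only, and the substrates of the 7 enzymes were not measured in these data.

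6 of the 7 genes lie on chromosome 6, in the coordinates of the deposited annotation, whose build name the sources read here do not state. From the lower coordinate upwards they are EpUGT16_A (chr6:323573136-323603025, minus strand), EpUGT6_A (chr6:345909330-345911183, minus), EpUGT13_A (chr6:348015581-348016957, plus), Ebr06G044290 (chr6:348502562-348503337, plus), Ebr06G044660 (chr6:351380608-351381978, plus) and Ebr06G045440 (chr6:357437157-357438527, plus). EpUGT2_A lies on chromosome 1 (chr1:115409468-115411194, minus). Span and annotated length were equal for EpUGT6_A, EpUGT13_A, Ebr06G044660, Ebr06G045440 and EpUGT2_A, whereas the span of EpUGT16_A exceeded its 1715 annotated bases by 28175. Ebr06G044290 had the shortest model, with 609 annotated bases. The stretch from EpUGT16_A to Ebr06G045440 held 564 genes, of which 43 were described as glycosyltransferases of this family, against 73 on the whole of chromosome 6 and 395 in all. Whether reads that fit more than 1 gene were counted is likewise not stated, so reads of near-identical neighbours in this stretch cannot be told apart from those of the named genes.

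Of the 7 genes, EpUGT16_A alone has designed oligonucleotides in the sources used here. The study reports that, at S3, real-time PCR trends of the genes it selected followed those of its RNA-seq. Its primers for EpUGT16_A are shown because they mark the transcript that the study measured a second time. They are written 5′ to 3′ in lower case, and were not placed on the gene because no genome was used.
EpUGT16_A forward primer: cggcgagttagaatcagc
EpUGT16_A reverse primer: atagaccttgctcctcctc

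The counts on genes summed to between 13609959 and 18482851 per library. Of 63 leaf marker genes (small subunit of ribulose bisphosphate carboxylase and chlorophyll a-b binding proteins), 62 were detected, with a summed FPKM of 25090 to 74433 per library. Of 3 root marker genes (Casparian strip membrane proteins), 1 was detected, at no more than 0.692 FPKM. Replicates were not uniformly close. Over all genes, 11 of the 27 libraries correlated more strongly with a library of another group than with either of their own replicates. No pair of replicates agreed within sampling noise, since the closest pair, HN S3 A and B, still differed by a chi-square of 10.97 per degree of freedom. Below, results that rest on a single library are given with and without it.

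By median level, 2 of the 7 genes were abundant and 5 were low beside them. Levels are given as FPKM (fragments scaled by gene length and by library), which is scaled by gene length and can be compared between genes. EpUGT16_A had a median of 73.9 FPKM over the 27 libraries (9.66 to 492) and EpUGT6_A a median of 53.1 FPKM (1.80 to 158). The medians of the others were 7.002 FPKM for Ebr06G044660, 3.64 for Ebr06G045440, 1.38 for EpUGT13_A, 1.23 for EpUGT2_A and 0.758 for Ebr06G044290. By mean FPKM these 5 still ranked above 68.8% to 84.4% of all genes, which include 14115 without counts. Ebr06G044290, Ebr06G045440 and EpUGT2_A each had 2 libraries with no count, and a count of 0 allows up to 3 counts, or 0.104 to 0.284 FPKM in those libraries; this limit covers counting error only.

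Replicates of 1 group varied widely. The coefficient of variation of FPKM within a group had a median of 61.5% over the 63 combinations of gene and group (16.1% to 157%), and it exceeded 50% in 42 of them. When the 9 groups were ordered by their mean, 54 of the 56 neighbouring pairs overlapped. The exceptions were Ebr06G045440 between LN S1 and MN S1, and EpUGT2_A between HN S1 and MN S1. MN S3 had the highest mean for EpUGT16_A (263 ± 223 FPKM, SD, n = 3), Ebr06G044660 (28.0 ± 28.0) and Ebr06G044290 (33.7 ± 28.9). MN S2 had the highest mean for Ebr06G045440 (37.1 ± 37.9) and EpUGT2_A (9.77 ± 9.36), HN S3 for EpUGT6_A (113 ± 41.1), and HN S1 for EpUGT13_A (3.80 ± 1.53). The lowest means stood in LN S3 for EpUGT16_A (34.7 ± 25.2), HN S3 for Ebr06G044660 (1.43 ± 0.883), Ebr06G045440 (0.693 ± 0.679) and Ebr06G044290 (0.139 ± 0.166), MN S3 for EpUGT6_A (34.6 ± 21.8), MN S2 for EpUGT13_A (0.807 ± 0.592) and MN S1 for EpUGT2_A (0.0857 ± 0.0758).

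**Figure D1:**
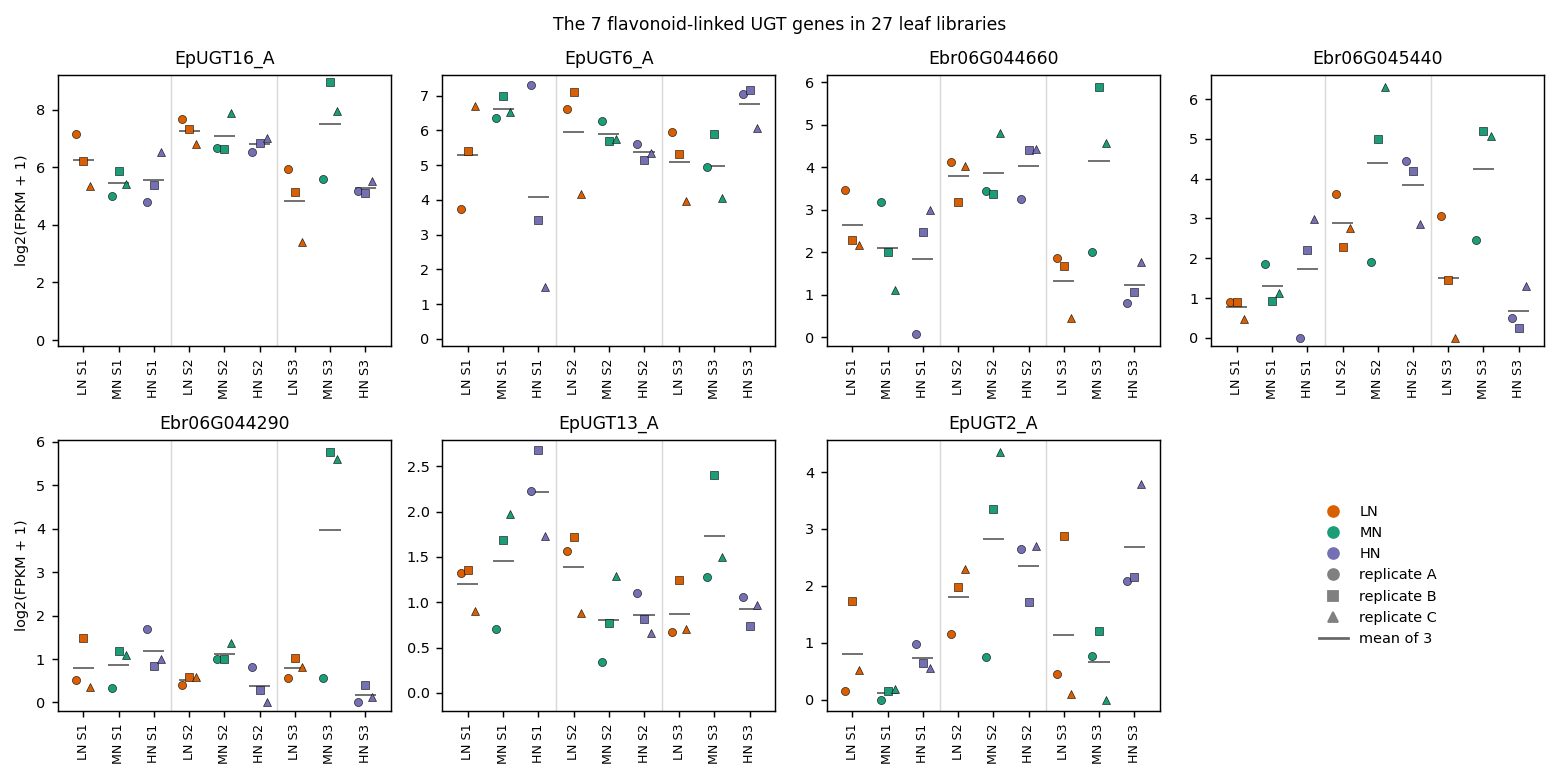
log2(FPKM + 1) of the 7 UGT genes (one panel each) in the 27 libraries, by treatment and stage; colours mark LN, MN and HN, symbols mark replicates A, B and C, and the bar is the mean of 3. In the MN S3 group of Ebr06G044290, replicates B and C stand at 53.2 and 47.5 FPKM while replicate A stands at 0.477 FPKM, close to the LN and HN libraries of that stage.

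The first question was whether nitrate supply changed these genes at S1 and S2, the stages before the one for which the study describes its networks. It was tested with edgeR's quasi-likelihood F test on counts, and a call needed an adjusted p (Benjamini-Hochberg, over all tested genes) under 0.05 and a log2 fold change of 1 or more in either direction. For LN vs MN, none of the 6 genes that passed edgeR's filter on low counts was called at S1 or at S2. The share of all tested genes called was 0.00918% at S1 and 0% at S2. EpUGT2_A at S1 and Ebr06G044290 at S2 were below the filter. Ebr06G044290 was lower in every LN S2 library than in every MN S2 library (0.440 ± 0.107 against 1.19 ± 0.331 FPKM, SD, n = 3 each). It held 13 against 32 counts in all. It was the 1 gene of the 7 lower in this way, beside 8.94% of all genes, and 0 were higher (9.36%). At an unadjusted p under 0.05 there was no UGT gene of the 7 at S1 (8.64% of all genes) or S2 (13.3%). DESeq2 called none of the 7 either, beside 3.09% of all genes at S1 and 4.1% at S2. The median log2 fold change of the tested members was -0.33 at S1 and -0.04 at S2, beside 0.0057 and -0.023 over all tested genes.

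For HN vs MN, none of 7 genes was called at S1 (0.111% of all genes) and none of 6 at S2 (0.018%). DESeq2 called none at either stage, beside 3.8% and 6.51% of all genes, but gave no adjusted p for EpUGT6_A at S1. At S1, EpUGT2_A (Ebr01G013210) reached an unadjusted p of 0.0457, as did 9.31% of all genes at p under 0.05. It held 21, 14 and 12 counts in HN S1 (0.982, 0.562 and 0.463 FPKM), against 0, 3 and 4 counts in MN S1 (0, 0.113 and 0.144 FPKM). The 2 groups did not overlap, and EpUGT2_A was the 1 gene of the 7 that was higher in every HN S1 library than in every MN S1 library, as were 6.27% of all genes. Its log2 fold change was 2.82 ± 1.17 (SE, n = 3 each), with an edgeR adjusted p of 0.521, and rested on 47 against 7 counts in all.

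At S2, EpUGT6_A was the 1 gene with an unadjusted p under 0.05 for HN vs MN (18.4% of all genes). It stood at 48.1, 34.3 and 39.4 FPKM in HN S2, against 76.7, 50.4 and 53.1 FPKM in MN S2. Every HN S2 library lay below every MN S2 library. The log2 fold change was -0.58 ± 0.24 (SE, n = 3 each), with an edgeR adjusted p of 0.266. Ebr06G044290 was also lower in all HN S2 libraries than in all MN S2 libraries, at 0.773, 0.214 and 0 FPKM against 1.01, 0.989 and 1.57 FPKM, but it held 10 against 32 counts in all and did not pass the filter. Non-overlap in this direction was found for 2 of the 7 genes and for 9.85% of all genes.

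Between HN and LN, none of 6 genes was called at S1 (0.0138% of all genes) and none of 6 at S2 (0.00885%). DESeq2 called none, beside 2.75% and 5.78% of all genes. EpUGT13_A (Ebr06G044210), 1 of the 4 genes with the FGGT1 match, reached an unadjusted p of 0.0271 at S1 (8.14% of all genes under 0.05). Its levels were 3.69, 5.39 and 2.32 FPKM in HN S1, against 1.51, 1.56 and 0.877 FPKM in LN S1. The 2 groups did not overlap, as was the case in this direction for 5.6% of all genes. The log2 fold change was 1.49 ± 0.53 (SE, n = 3 each), with an edgeR adjusted p of 0.535.

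With both stages in 1 fit and stage as a covariate, none of the 7 genes was called for LN vs MN (0.0483% of all genes) or HN vs MN (0.119%), at 6 libraries a side. DESeq2 called none in these fits, beside 2.03% and 3.19% of all genes, but gave no adjusted p for EpUGT6_A in HN vs MN. Ebr06G045440 was the 1 gene with an unadjusted p under 0.05, for LN vs MN (10.9% of all genes), with a log2 fold change of -1.82 ± 0.67 (SE, n = 6 each) and an edgeR adjusted p of 0.340. Its levels were 0.880, 0.858 and 0.4004 FPKM in LN S1 against 2.64, 0.903 and 1.18 FPKM in MN S1, where the groups did not overlap (5.9% of all genes were lower and 7.72% higher in this way). They were 11.3, 3.85 and 5.74 FPKM in LN S2 against 2.74, 30.8 and 77.8 FPKM in MN S2, where they did. Over the 8 comparisons between treatments, the smallest adjusted p was 0.266 with edgeR and 0.102 with DESeq2. It was 0.0581 with edgeR when 1 library was left out. In each comparison these minima cover only those of the 7 genes that passed edgeR's filter with all libraries. A missed threshold does not show that the genes did not respond.

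**Figure D2:**
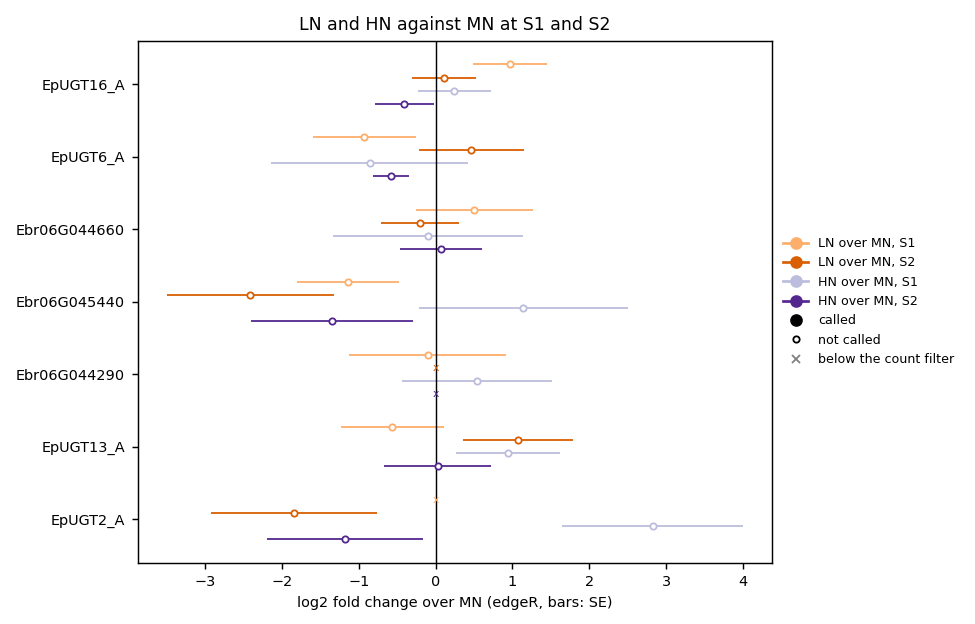
edgeR log2 fold changes of LN over MN and of HN over MN at S1 and S2 for the 7 UGT genes, with bars of 1 SE (3 libraries a side); open symbols are not called, and a cross at 0 marks a gene below the count filter. All symbols are open, and the estimate farthest from 0 is that of EpUGT2_A for HN over MN at S1 (2.82 ± 1.17).

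Between stages the picture differed. With the 18 libraries of S1 and S2 in 1 fit and treatment as a covariate, 4 of the 7 genes were called for S2 vs S1, all of them higher at S2: EpUGT2_A, Ebr06G045440, Ebr06G044660 and EpUGT16_A. Of all 26804 tested genes, 8.38% were called and 5.19% were called higher. The median log2 fold change was 1.22 over the 7 genes and -0.00065 over all tested genes.

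EpUGT16_A, the abundant rhamnosyltransferase-like gene, stood at 202, 160.2 and 111 FPKM in LN S2 against 143, 73.9 and 40.1 FPKM in LN S1. Under MN it had 102, 99.1 and 236 FPKM at S2 against 31.4, 58.1 and 41.8 FPKM at S1, and under HN 91.1, 115 and 128 FPKM at S2 against 26.6, 40.5 and 91.8 FPKM at S1. The stages did not overlap under MN and overlapped by a single S1 library under LN and HN. The log2 fold change over the 3 treatments was 1.22 ± 0.29 (SE, n = 9 each), with an edgeR adjusted p of 0.0120. It was called in each of the 18 fits with 1 library left out (adjusted p 0.00625 to 0.0257) and in each of 5 other settings (0.000662 to 0.0311).

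Ebr06G045440, with the FGGT1 match, showed the wider change of the xylosyltransferase-like genes. Under LN it had 11.3, 3.85 and 5.74 FPKM at S2 against 0.880, 0.858 and 0.4004 FPKM at S1. Under MN it had 2.74, 30.8 and 77.8 FPKM at S2 against 2.64, 0.903 and 1.18 FPKM at S1, and under HN 20.6, 17.3 and 6.32 FPKM at S2 against 0, 3.64 and 6.95 FPKM at S1. All S2 libraries lay above all S1 libraries under LN and MN, whereas under HN 1 library of each stage crossed. The log2 fold change over the 3 treatments was 3.28 ± 0.73 (SE, n = 9 each), with an edgeR adjusted p of 0.00829, and it was called in all 18 fits with 1 library left out (0.00485 to 0.0190) and in all 5 other settings (1.24e-05 to 0.0114).

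Ebr06G044660 followed with a log2 fold change of 1.72 ± 0.53 (SE, n = 9 each) and an edgeR adjusted p of 0.0388. It stood at 16.4, 8.14 and 15.4 FPKM in LN S2 against 10.02, 3.88 and 3.48 FPKM in LN S1, and at 9.84, 9.28 and 26.9 FPKM in MN S2 against 8.10, 2.99 and 1.18 FPKM in MN S1. In HN S2 it had 8.50, 20.1 and 20.4 FPKM, against 0.0589, 4.55 and 7.002 FPKM in HN S1. The stages did not overlap under MN and HN. This call was the least firm of the 4. It was lost in 10 of the 18 fits with 1 library left out, namely without LN S1 B or C, MN S1 B or C, HN S1 B, LN S2 A or C, MN S2 C, and HN S2 B or C, and the adjusted p over the 18 fits ranged from 0.0176 to 0.0786. The fold change stayed between 1.53 and 1.98. It was called in 4 of 5 other settings, and not with a replicate block (adjusted p = 0.0606; 0.00673 to 0.0606 over the 5 settings).

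EpUGT2_A, the gene on chromosome 1, had the fewest reads of the 4. It held 33, 84 and 110 counts in LN S2 against 3, 58 and 14 in LN S1. Under MN it held 19, 212 and 489 counts at S2 against 0, 3 and 4 at S1, and under HN 154, 60 and 179 counts at S2 against 21, 14 and 12 at S1. Stages overlapped under LN only, through LN S1 B. The log2 fold change over the 3 treatments was 3.32 ± 0.88 (SE, n = 9 each), with an edgeR adjusted p of 0.0202, and it was called in all 18 fits with 1 library left out (0.00448 to 0.0441) and in all 5 other settings (8.68e-05 to 0.0221).

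The other 3 genes were not called for S2 vs S1 over the 18 libraries. EpUGT13_A (Ebr06G044210) had an unadjusted p of 0.0417 (30% of all genes were under 0.05), with a log2 fold change of -1.04 ± 0.47 (SE, n = 9 each) and an edgeR adjusted p of 0.149. EpUGT6_A and Ebr06G044290 had no unadjusted p under 0.05. For EpUGT6_A the levels crossed, with 97.6, 136 and 17.0 FPKM in LN S2 against 12.5, 41.7 and 104 FPKM in LN S1, and with 48.1, 34.3 and 39.4 FPKM in HN S2 against 158, 9.72 and 1.80 FPKM in HN S1. Ebr06G044290 did not exceed 2.25 FPKM in any library of the first 2 stages.

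Within single treatments the calls were fewer. Under LN none of 6 genes was called by edgeR (0% of all genes), although Ebr06G045440 had an unadjusted p of 0.00100 (9.7% of all genes under 0.05), a log2 fold change of 3.29 ± 0.57 (SE, n = 3 each) and an edgeR adjusted p of 0.324. DESeq2 called it (adjusted p = 4.41e-05; 2.12% of all genes called), and it was the 1 gene of the 7 higher in every LN S2 library than in every LN S1 library, as were 6.9% of all genes.

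Under MN edgeR called none of the 7 genes (1.27% of all genes). 5 of them had an unadjusted p under 0.05 (20.8% of all genes), and in the same 5 the stages did not overlap: 4 were higher in every MN S2 library (12.5% of all genes) and EpUGT6_A was lower (11.4%). The log2 fold changes were 6.68 ± 1.46 for EpUGT2_A (SE, n = 3 each, edgeR adjusted p = 0.0779), 4.55 ± 1.18 for Ebr06G045440 (0.106), 1.90 ± 0.78 for Ebr06G044660 (0.234), 1.72 ± 0.44 for EpUGT16_A (0.101) and -0.74 ± 0.27 for EpUGT6_A (0.200). DESeq2 called the 3 genes EpUGT2_A, Ebr06G045440 and EpUGT16_A (10.6% of all genes called). Without MN S2 A, the library in which EpUGT2_A, Ebr06G045440 and EpUGT13_A were lowest at that stage, edgeR called EpUGT2_A (adjusted p = 0.0194; 0.0194 to 0.279 over the 6 fits with 1 library left out) and Ebr06G045440 (0.0216; 0.0216 to 0.326).

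Under HN, edgeR called 1 of 6 genes (6.46% of all genes, and 3.93% higher at S2), EpUGT2_A (Ebr01G013210), higher at S2 with a log2 fold change of 2.70 ± 0.56 (SE, n = 3 each) and an adjusted p of 0.0424. The call was lost without any single library other than HN S1 A (adjusted p 0.0248 to 0.168 over the 6 fits). It was made in 3 of 5 other settings, and not with a replicate block (adjusted p = 0.117) or in 1 fit of all 27 libraries (0.236; 0.000349 to 0.236 over the 5 settings). EpUGT13_A (Ebr06G044210) had an unadjusted p of 0.00567 (24.4% of all genes under 0.05) and a log2 fold change of -2.19 ± 0.55 (SE, n = 3 each, edgeR adjusted p = 0.0635), and DESeq2 called it lower at S2 (adjusted p = 0.00801; 12.5% of all genes called). It stood at 1.15, 0.759 and 0.579 FPKM in HN S2 against 3.69, 5.39 and 2.32 FPKM in HN S1. Of the 7 genes, 2 were higher (15% of all genes) and 2 lower (10.9%) in every HN S2 library than in every HN S1 library.

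HN S1 A stood apart for 3 of the genes. It held 3635 counts of EpUGT6_A against 260 and 50 in HN S1 B and C, but 1 count of Ebr06G044660 against 90 and 144, and 0 counts of Ebr06G045440 against 72 and 143. For EpUGT6_A, the log2 fold change of S2 vs S1 under HN was -0.46 with all libraries and 2.83 without HN S1 A, where edgeR called the gene higher at S2 (adjusted p = 0.0433; 0.0433 to 0.951 over the 6 fits with 1 library left out). This gene was chosen for mention after its values were seen. HN S1 A had 65167 FPKM of summed leaf markers, close to the 65198 of HN S1 C, and HN S1 B had 35371; the part of tissue make-up in the difference was not tested. In bulk leaf RNA, fewer cells of a type and less RNA per cell cannot be told apart.

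**Figure D3:**
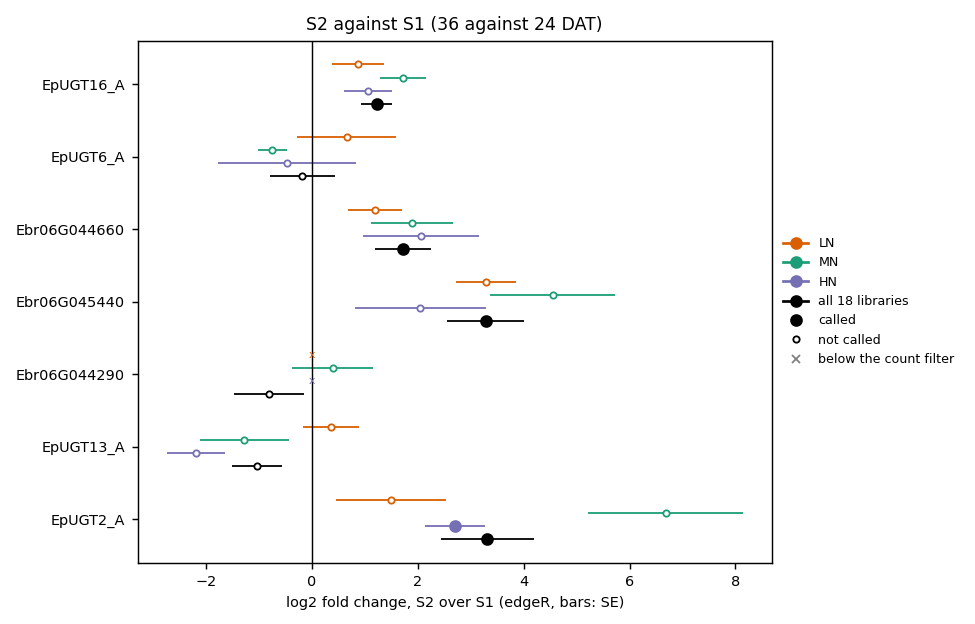
edgeR log2 fold changes of S2 over S1 for the 7 UGT genes under LN, MN and HN (3 libraries a side) and over all 18 libraries, with bars of 1 SE; filled symbols are called, open ones are not, and a cross marks a gene below the count filter. EpUGT16_A, Ebr06G044660, Ebr06G045440 and EpUGT2_A lie right of 0 under each treatment, while EpUGT6_A and EpUGT13_A lie on both sides.

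Whether nitrate altered the change between the stages was tested as an interaction. None of the 7 genes was called for the LN effect at S2 minus that at S1 (0.0563% of all genes) or for the HN effect (0.198%). DESeq2 called none, beside 2.84% and 3.32% of all genes, but gave no adjusted p for EpUGT6_A for the HN effect. The smallest adjusted p among them was 0.295 with edgeR and 0.0575 with DESeq2. In both interactions EpUGT2_A was the gene with an unadjusted p under 0.05 (11.7% of all genes for LN and 12.6% for HN). Its estimates were -5.17 ± 1.82 for LN (SE, edgeR adjusted p = 0.327) and -3.99 ± 1.45 for HN (adjusted p = 0.295). Both include MN S1, which held 7 counts of this gene in all. With 1 library left out they ranged from -5.71 to -3.47 for LN and from -4.52 to -3.00 for HN. The weakest were without LN S1 B for LN and without MN S2 C for HN.

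At S3, the stage on which the study had chosen these genes, the values are given without a test. For 5 of the 7 genes, all but EpUGT6_A and EpUGT2_A, the 2 highest libraries of this stage were MN S3 B and C. Ebr06G044290 had 0.476, 1.04 and 0.758 FPKM in LN S3 and 0, 0.323 and 0.0943 FPKM in HN S3, against 0.477, 53.2 and 47.5 FPKM in MN S3 A, B and C. In counts these are 5, 488 and 483 for MN S3, while no other library of the 27 exceeded 17 counts. MN S3 A thus lay within the range of the LN S3 libraries, and replicates B and C stood 111 and 99.6 times above it.

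EpUGT16_A had 60.0, 34.4 and 9.66 FPKM in LN S3 and 35.6, 33.7 and 45.1 FPKM in HN S3, against 47.9, 492 and 249 FPKM in MN S3. Again MN S3 A lay among the LN and HN libraries, above 5 of the 6. Ebr06G045440 had 7.36, 1.75 and 0 FPKM in LN S3 and 0.421, 0.191 and 1.47 FPKM in HN S3, against 4.53, 35.4 and 32.7 FPKM in MN S3. Ebr06G044660 had 2.62, 2.21 and 0.379 FPKM in LN S3 and 0.758, 1.10 and 2.43 FPKM in HN S3, against 3.05, 58.3 and 22.6 FPKM in MN S3. For Ebr06G044660 all 3 MN libraries stood above the LN and HN libraries, and MN S3 B stood 19.1 times above MN S3 A. EpUGT13_A had 0.590, 1.38 and 0.629 FPKM in LN S3 and 1.09, 0.666 and 0.959 FPKM in HN S3, against 1.43, 4.29 and 1.83 FPKM in MN S3, so that each MN library stood above each LN and HN library, at a low level.

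EpUGT6_A and EpUGT2_A ran the other way under HN. EpUGT6_A had 130.4, 142 and 65.8 FPKM in HN S3 and 61.1, 38.6 and 14.8 FPKM in LN S3, against 29.9, 58.4 and 15.5 FPKM in MN S3. EpUGT2_A had 3.24, 3.45 and 12.8 FPKM in HN S3 and 0.369, 6.33 and 0.0668 FPKM in LN S3, against 0.706, 1.31 and 0 FPKM in MN S3. In both genes each HN library was above each MN library, whereas LN and MN overlapped.

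As log2 fold changes, LN vs MN at S3 gave -5.46 for Ebr06G044290, -4.01 for Ebr06G044660, -3.00 for Ebr06G045440, -2.93 for EpUGT16_A, -1.54 for EpUGT13_A, 0.13 for EpUGT6_A and 1.74 for EpUGT2_A, beside a median of 0.01 over all genes past the filter. The value of EpUGT2_A rested on LN S3 B with its 173 counts, and was -1.62 without that library. Ebr06G045440 was at -4.79 without LN S3 A. Without MN S3 B, EpUGT13_A was at -0.91, EpUGT16_A at -2.10 and Ebr06G044660 at -2.88. EpUGT6_A changed sign with the library left out, between -0.38 without LN S3 A and 0.74 without MN S3 B. HN vs MN gave -7.85 for Ebr06G044290, -5.10 for Ebr06G045440, -4.29 for Ebr06G044660, -2.79 for EpUGT16_A, -1.48 for EpUGT13_A, 1.69 for EpUGT6_A and 3.27 for EpUGT2_A, beside a median of -0.02. Without MN S3 B the HN vs MN values of EpUGT13_A, EpUGT16_A and Ebr06G044660 were -0.83, -1.94 and -3.14. In the HN vs MN comparison 5 of the 7 genes were lower and 2 higher with no overlap, beside 11.2% and 12.5% of all genes, and for LN vs MN 2 were lower and 0 higher, beside 5.46% and 4.37%. Nothing is read from these shares, since the genes were chosen at this stage.

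MN S3 B was the highest of the 9 S3 libraries for 5 of the 7 UGT genes, beside 7.93% of all genes with at least 30 counts in all. It was also the highest for 8 of 14 other genes that the study names for the pathway and its regulators, and for 9 of the 18 other family members of the chromosome 6 stretch, against 15.3% of the 261 family members outside the 7. MN S3 A was the highest for none of the 7, 1 of the 14 and 9.28% of all genes. MN S3 C was the highest for none of the 7, 3 of the 14 and 15.7% of all genes. These shares are a description only, since the 7 genes and the 14 had been chosen at this stage. MN S3 B had 42507 FPKM of summed leaf markers, MN S3 A 39043 and MN S3 C 40042.

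The study linked MYB1 (Ebr04G001770) and MYB12 (Ebr01G065030) to UGT genes by co-expression. Both belong to a family of transcription factors with flavonoid regulators in other plants. It reports Pearson correlations above 0.9 for the 2 MYB genes with Ebr06G045440 and Ebr06G044290. Over the 9 S3 libraries, Pearson's r of log2(FPKM + 1) with MYB1 was 0.97 for Ebr06G044290, 0.90 for Ebr06G044660, 0.87 for Ebr06G045440, 0.85 for EpUGT16_A and 0.76 for EpUGT13_A. With MYB12 it was 0.87, 0.86, 0.87, 0.80 and 0.78 in the same genes. EpUGT6_A and EpUGT2_A had negative r with both, between -0.46 and -0.25. MYB1 itself had at most 0.155 FPKM in the LN and HN libraries of that stage, against 0.356, 2.28 and 4.11 FPKM in MN S3. Without MN S3 B and C, which left 7 libraries, r of MYB1 was 0.37 with Ebr06G044290, 0.56 with Ebr06G044660, 0.47 with Ebr06G045440, 0.25 with EpUGT16_A and 0.78 with EpUGT13_A. For MYB12 it was 0.60 with Ebr06G044290, 0.59 with Ebr06G044660, 0.53 with Ebr06G045440, 0.29 with EpUGT16_A and 0.61 with EpUGT13_A in these 7 libraries.

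In the 18 libraries of S1 and S2, none of these relations passed the test. Whether the study's own correlation with MYB1 and MYB12 used these libraries is not known. Over the 14 relations of the 7 genes with MYB1 and MYB12, Pearson's r lay between -0.34 and 0.40, and none of the 14 had an adjusted p under 0.05 (permutation tests, 100000 resamples, two-sided, Benjamini-Hochberg over 35 relations). The highest r was that of MYB1 with EpUGT16_A (r = 0.40, permutation p = 0.0968, adjusted p = 0.339; rho = 0.38, permutation p = 0.123, adjusted p = 0.287). It was 0.38 within S1, 0.03 within S2, and 0.30 without the 2 libraries farthest from the median of MYB1. By rho the highest was MYB1 with Ebr06G045440 (rho = 0.48, permutation p = 0.0455, adjusted p = 0.195; r = 0.33, permutation p = 0.176, adjusted p = 0.462). MYB1 with Ebr06G044290 had r = -0.34 (permutation p = 0.164, adjusted p = 0.462; rho = -0.38, permutation p = 0.12, adjusted p = 0.287). Ebr06G044290 stayed at or under 17 counts in these libraries and MYB1 at or under 1.64 FPKM, which limits what a correlation could show.

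Among the 21 pairs of UGT genes, 4 had an adjusted p under 0.05 for r in S1 and S2, all positive and all among the 4 genes that were higher at S2. Ebr06G044660 and EpUGT16_A had r = 0.81 (permutation p = 3e-05, adjusted p = 0.00105) and rho = 0.84 (permutation p = 4e-05, adjusted p = 0.0014). Within S1 r was 0.62, within S2 0.56, and without the 2 libraries farthest from the median of Ebr06G044660 it was 0.74. At S3 r was 0.97 with all 9 libraries and 0.82 without MN S3 B and C.

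Ebr06G045440 and Ebr06G044660, both with the FGGT1 match, had r = 0.74 (permutation p = 0.00043, adjusted p = 0.00502) and rho = 0.71 (permutation p = 0.00128, adjusted p = 0.0224), with 0.60 within S1, 0.40 within S2, 0.74 without the 2 farthest libraries and 0.94 at S3. Ebr06G045440 and EpUGT2_A had r = 0.78 (permutation p = 0.00018, adjusted p = 0.00315) and rho = 0.67 (permutation p = 0.00334, adjusted p = 0.039), but -0.22 within S1 and 0.77 within S2, 0.57 without the 2 farthest libraries, and -0.41 at S3. On TMM-scaled log2 CPM this pair had r = 0.57 (permutation p = 0.0126, adjusted p = 0.0882), so that its r no longer passed. Ebr06G045440 and EpUGT16_A had r = 0.65 (permutation p = 0.00334, adjusted p = 0.0292) and rho = 0.61 (permutation p = 0.00906, adjusted p = 0.0793), with 0.25 within S1, 0.30 within S2 and 0.59 without the 2 farthest libraries. The pooled values include the difference between the stages. When deviations from the group means were correlated instead, none of the 35 relations had an adjusted p under 0.05, and the pair Ebr06G044660 and EpUGT16_A had r = 0.61 (permutation p = 0.0495 within groups, adjusted p = 0.347).

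**Figure D4:**
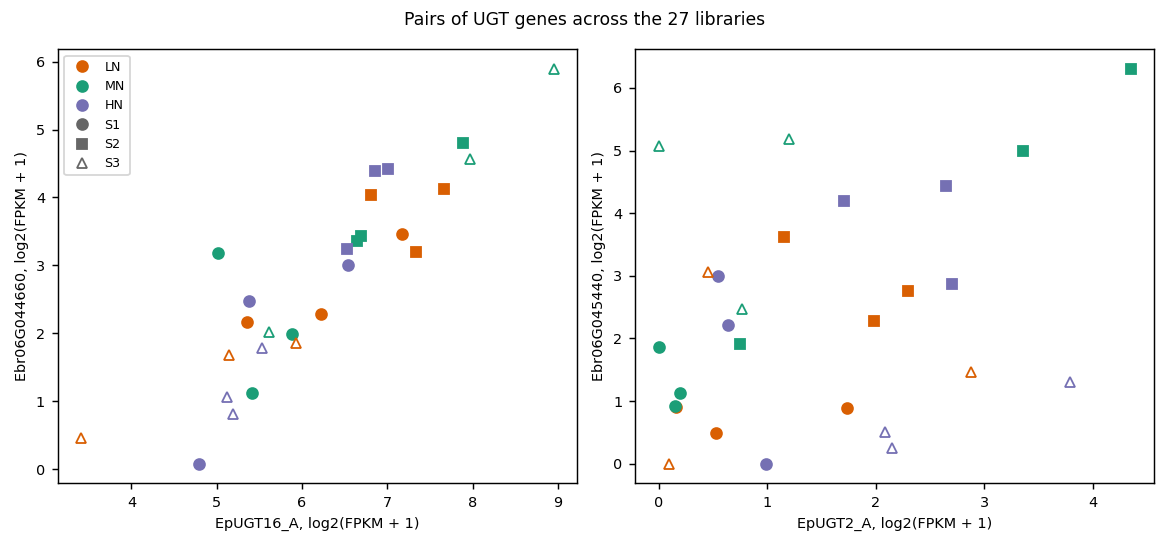
Levels of 2 pairs of UGT genes, EpUGT16_A with Ebr06G044660 (left) and EpUGT2_A with Ebr06G045440 (right), as log2(FPKM + 1) in each of the 27 libraries; colours mark treatments, circles, squares and open triangles mark S1, S2 and S3. In the left pair r is 0.81 over S1 and S2 pooled, 0.62 within S1, 0.56 within S2 and 0.97 at S3. In the right pair r is 0.78 over S1 and S2 pooled and -0.41 at S3.

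**Figure D5:**
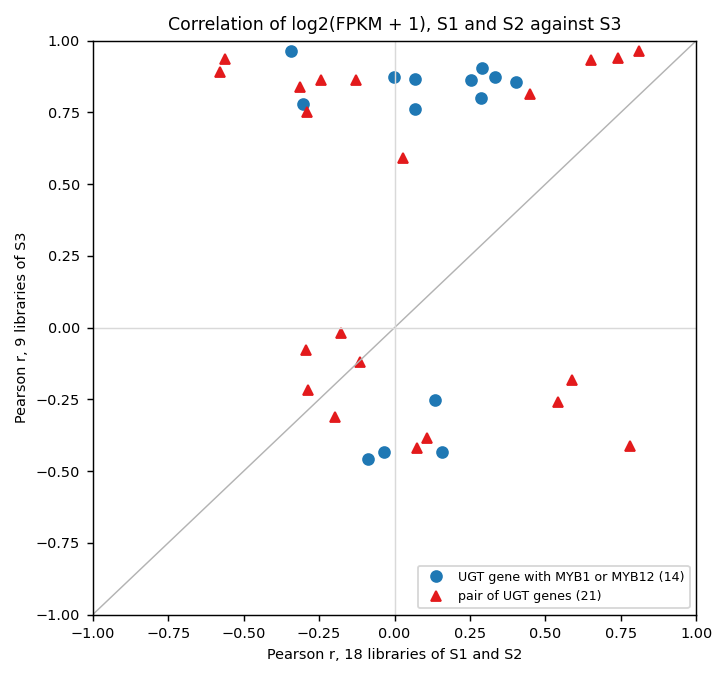
Pearson's r of log2(FPKM + 1) over the 18 libraries of S1 and S2 (horizontal) against r over the 9 libraries of S3 (vertical), for 14 relations of UGT genes with MYB1 or MYB12 (circles) and 21 pairs of UGT genes (triangles); the grey line marks equal values. 6 relations exceed 0.9 at S3 and none does over S1 and S2, where the highest is 0.81.

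The genes whose pattern was most like that of each UGT gene over the 18 libraries of S1 and S2 were taken as the 2 with the highest Pearson's r among genes averaging at least 1 FPKM. Ebr06G044660 and EpUGT16_A had the same nearest gene, Ebr05G046290 on chromosome 5, another gene with the FGGT1 match. Its r was 0.88 with Ebr06G044660 and 0.87 with EpUGT16_A, and 0.96 and 0.97 over the 9 S3 libraries. EpUGT2_A was closest to Ebr06G001750, matched to laccase-17, an enzyme of lignin formation in Arabidopsis thaliana (r = 0.90, and 0.89 at S3). For EpUGT13_A the nearest 2 were Ebr01G049910 and Ebr04G044530 (r = 0.85 and 0.84), both matched to NRT1/PTR FAMILY 2.7, a nitrate efflux transporter of Arabidopsis thaliana roots, with -0.06 and 0.61 at S3. EpUGT6_A was closest to Ebr04G063030, which has no match (r = 0.88, and -0.66 at S3), followed by Ebr01G053810, matched to UDP-glycosyltransferase 86A1 (0.87, and 0.55 at S3). The second gene for Ebr06G044660 was Ebr01G022750, matched to proteasome subunit beta type-6 (0.87, and 0.04 at S3), and that for EpUGT16_A was Ebr03G055650, matched to the chaperone dnaJ C76 (0.86, and 0.70 at S3). For Ebr06G045440 the nearest was Ebr02G070370, matched to a stromal cell-derived factor 2-like protein (0.88, and 0.45 at S3). Ebr06G044290 did not itself average 1 FPKM. Its nearest gene was Ebr05G002090, matched to beta-amyrin 28-monooxygenase (0.78, and -0.60 at S3). Such values are the highest among all genes past that minimum and are a description only.

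The 14 other genes that the study names for this pathway were chosen on S3 as well. None was called in any of the 8 comparisons between treatments at S1 and S2, nor in the interactions. For S2 vs S1 over all treatments 2 of 14 were called by edgeR, beside 8.38% of all tested genes (5.19% called higher). EpFLS3, a flavonol synthase, was higher at S2 (log2 fold change 1.10 ± 0.26, SE, n = 9 each, edgeR adjusted p = 0.0113). EpF3H (Ebr04G062950), a flavanone 3-hydroxylase, was lower (-1.36 ± 0.38, adjusted p = 0.0245). The median log2 fold change was 1.22 for the 7 UGT genes and -0.14 for these 14. Under HN, 2 of 13 tested were called, both lower at S2 than at S1, beside 6.46% of all genes called. They were EpF3H (-2.34 ± 0.24, SE, n = 3 each, edgeR adjusted p = 0.0114) and EpPT5 (Ebr02G069310), a prenyltransferase (-8.48 ± 0.88, adjusted p = 0.0114). Of 214 other tested members of the UGT family, 10 were called higher and 17 lower at S2 over all treatments, with a median log2 fold change of 0.07. The same shares of all tested genes, 8.38% called and 5.19% called higher, stand beside these counts.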

How the data were processed

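RNA-seq of leaves was deposited as 2 tables over 27 libraries. Per the labels, reads were made from NEBNext Ultra libraries on a NovaSeq instrument, and the submitters' processing notes name HISAT2 2.0.5, StringTie 1.3.3b and featureCounts 1.5.0-p3. The genome build and the settings for strand and multiple mapping are not stated in the sources read here. The deposited gene counts are whole reads per gene, not normalized. The deposited FPKM values equal the count divided by gene length and scaled by 1 factor per library.

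Counts were tested with edgeR 4.0.16 (glmQLFit and glmQLFTest, TMM, filterByExpr) in R 4.3.3, with Benjamini-Hochberg adjustment over all tested genes. Calls needed an adjusted p under 0.05 and a log2 fold change of 1 or more in either direction, or the adjusted p alone for interactions. Each comparison was fitted on its own groups. Correlations used log2(FPKM + 1) and 100000 permutations (Python 3.11.15, scipy 1.17.1). Scripts were tested on simulated data. Alternatives were DESeq2 1.42.0, its size factors in edgeR (RLE), omission of the count filter, a joint fit to the 27 libraries, a block on replicate letter, other pseudocounts and scalings, and leaving out each library in turn.

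The 7 genes and the lists were chosen with earlier results of these data known. A fold change with its test was printed for 1 of the 7 genes where its unadjusted p was under 0.05. P-values measure the spread between 3 libraries per group, 13609959 to 18482851 counts each.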

Additional observations from a re-analysis of the deposited data

Results flagged for a closer look

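EpUGT6_A differed in direction between HN and MN at 2 stages. At S3 the mean log2(FPKM + 1) of HN minus MN was 1.79 and every HN library lay above every MN library, whereas at S2 the difference was -0.54 and every HN library lay below every MN library. The difference between the stages was not tested, and the S3 values were among those on which the gene had been chosen.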

How the results depend on the processing

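Calls of the 7 genes between treatments stayed at 0 under each alternative that was run. Calls for S2 vs S1 did not all stay. With DESeq2, 1 gene was called under LN, 3 under MN and 2 under HN, where EpUGT6_A had no adjusted p. With 1 fit of all 27 libraries, 1 was called under MN and 0 under HN. With 1 library left out, 0 to 2 were called under MN, 0 to 2 under HN and 3 to 4 over all treatments. The 4 correlations over S1 and S2 were 2 without the 2 libraries farthest from the median. On TMM-scaled log2 CPM they were 3, without Ebr06G045440 and EpUGT2_A. None of the calls made with all libraries changed sign, but EpUGT6_A for S2 vs S1 under HN, not called at -0.46 with all libraries, was called at 2.83 without HN S1 A.

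Deviations from group means correlated at a mean of 0.031 for libraries of the same replicate letter (108 pairs, -0.262 to 0.341). For different letters the mean was -0.015 (216 pairs, -0.310 to 0.4003). Such means cannot show that the letters carry no pairing. With the replicate block, 0 of the 7 genes were called under HN, and Ebr06G044660 over all treatments had an edgeR adjusted p of 0.0606. No other call of the 7 genes changed. Over all genes, the block left 93 called for S2 vs S1 under HN, against 1448 without it. Under MN it left 0 against 275, and over all treatments 2094 against 2245.

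Counts over all genes depended on the tool, and the cause was not tested. For LN vs MN, edgeR called 2 genes at S1 and 0 at S2, and DESeq2 762 and 1098. For HN vs MN they were 24 and 4 against 966 and 1773, and for HN vs LN 3 and 2 against 688 and 1595. For S2 vs S1 they were 0 and 502 under LN, 275 and 2865 under MN, 1448 and 3454 under HN, and 2245 and 3599 over all treatments. The depth was lowest for Ebr06G044290, with 0 to 17 counts per library at S1 and S2.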
